A study of Rattus norvegicus with 19 samples.

Results

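Stem Leydig cells of the rat testis were set against cells that the labels name only as bone stem cells. The genes of leukocytes were counted apart from those of mesenchyme. The comparison took the 5 stem Leydig arrays and the 3 bone stem arrays, 8 of the 19 arrays of a study on how the Leydig cell develops. All 31042 probe sets that are not controls were tested. The other 11 arrays hold progenitor (3), immature (4) and adult Leydig cells (4), which served for the estimate of spread and for reference levels. Both groups compared are from Sprague-Dawley rats, and the labels name no treatment, genotype change or age for either. The sources used here do not give how the cells were isolated, whether they were cultured or passaged, or which bone the second group came from. Nor do they tell whether the arrays of a group stand for different animals, so the spread on which each p-value rests may be technical.

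Leydig cells are the androgen-producing cells between the seminiferous tubules, and they arise from spindle-shaped precursors in the interstitium that express the receptor Pdgfra and do not yet make testosterone. Stromal stem cells of bone marrow are mesenchymal cells that can form bone, cartilage and fat and that secrete the chemokine Cxcl12. Marrow also holds the leukocytes that arise there, among them monocytes and macrophages, which are recognised by surface and lysosomal proteins that stromal cells lack. In bulk arrays fewer cells of a type and less RNA per cell cannot be told apart.

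Signals are on a linear scale on which the trimmed mean of each array is 100, and the median probe set lay at 29.9. A log2 difference is stem Leydig minus bone stem on the scale log2(signal + 16), given with its standard error (SE), so that a negative value is higher in bone stem cells. Between 41.9% and 47.3% of the probe sets on each of the 8 arrays had a signal below 16. Bone stem replicates 2 and 3 lay close together, differing in the median by 0.056 in absolute log2 value across 2387 bright probe sets. Whether they are repeat arrays of 1 RNA, which would leave 2 bone stem samples, is not told by the labels. The same measure was 0.181 and 0.166 between each of them and replicate 1, and 0.108 to 0.303 between stem Leydig arrays. The ratio of 3' to 5' signal of beta-actin, a sign of RNA integrity, ran from 2.38 to 2.95 for bone stem cells, against 1.03 to 1.84 for stem Leydig cells. That of Gapdh was 1.3 to 1.33 against 1.06 to 1.13. RNA integrity and cell type cannot be told apart here.

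Of the 31042 probe sets, 5749 were called at an adjusted p under 0.05 (18.5%), with 3039 higher in stem Leydig cells and 2710 higher in bone stem cells. Of 14217 named genes, each read from its brightest probe set, 3390 were called (23.8%), 1387 higher in stem Leydig cells (9.76%) and 2003 higher in bone stem cells (14.1%). With each array centred on its median, 40.7% of called probe sets were higher in stem Leydig cells in place of 52.9%, and 30.5% of called genes in place of 40.9%. The count of genes higher in stem Leydig cells was 905 with bone stem replicates 2 and 3 averaged into 1 sample, 919 without replicate 2 and 906 without replicate 3. Of the 242 called genes among 269 examined singly, 22 lost their call when the 2 were averaged. A difference of 2-fold or more was called for 1129 genes (7.94%), 455 higher in stem Leydig and 674 higher in bone stem cells. The median log2 difference of all genes was 0.0.

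**Figure D1:**
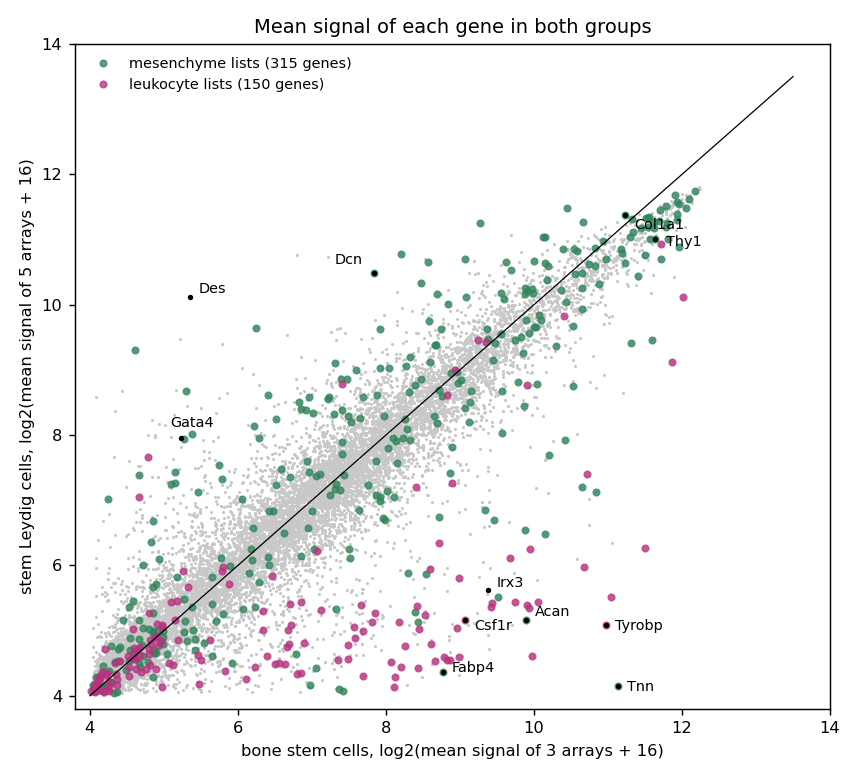
Mean signal of each gene in bone stem cells (x axis, 3 arrays) and stem Leydig cells (y axis, 5 arrays), both as log2(mean signal + 16), with the line of equality. Most genes of the leukocyte lists that lie off the line are on the bone stem side, where 75 of 150 were called, while the mesenchyme lists scatter to both sides, with 64 and 65 of 315 called.

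Genes of leukocytes, and of macrophages in particular, were higher in bone stem cells. In the 6 leukocyte lists, 75 of 150 measured genes were higher in bone stem cells and 3 in stem Leydig cells, with a median log2 difference of -0.78 against 0.0 for all genes. Genes were ranked by difference if called, without overlap between groups and with the brighter mean at or above the median probe set. Of the first 12 toward bone stem cells, 7 are in these lists, and 32 of the first 100. Among the first 100 toward stem Leydig cells, 2 are. These lists hold 150 of all 14217 genes.

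Genes that all leukocytes share had the largest share of called members of the 42 lists. Of 26 measured, 22 were higher in bone stem cells, none was higher in stem Leydig cells, and the median was -2.64. Ptprc, which encodes the common leukocyte antigen CD45, had signals of 418, 226 and 229 in bone stem cells against 6.9 to 16.5 in stem Leydig cells, a log2 difference of -3.45 ± 0.29 (SE; adjusted p = 2.56e-08). Laptm5, a lysosomal membrane protein of blood cells, read 1025, 965 and 968 in bone stem cells and 5.7 to 16.7 in stem Leydig cells (-5.37 ± 0.27). Cd53 and Rac2, a leukocyte tetraspanin and a small GTPase of blood cells, had means of 943 and 838 in bone stem cells against 26.2 and 27.2. Lack of overlap between the groups was a condition for naming Laptm5, Cd53 and Rac2, and it held for Ptprc too. Over all genes it held for 4298 of 14217.

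The macrophage and monocyte list held 41 genes higher in bone stem cells out of 54 measured, with a median of -2.12. Tyrobp, the adaptor of activating myeloid receptors, had signals of 2314, 1868 and 1795 in bone stem cells and 10.6 to 21.3 in stem Leydig cells, a log2 difference of -5.88 ± 0.25 (adjusted p = 1.31e-12). Cd68, a lysosomal glycoprotein of macrophages, read 1825, 2226 and 2232 against 19.3 to 45.3 (-5.55 ± 0.24). Fcer1g, the shared gamma chain of Fc receptors, read 2698 to 3109 against 45.7 to 75.3 (-5.25 ± 0.28). For these 3 genes, too, lack of overlap between the groups was a condition for being named. Csf1r, the receptor through which macrophages survive, read 940, 300.2 and 327 in bone stem cells and 17.5 to 25 in stem Leydig cells (-3.71 ± 0.28). The protease Ctss, the oxidase subunit Cybb and the scavenger receptor Mrc1 had bone stem means of 1618, 1045 and 667. Trem2, a lipid receptor of macrophages and osteoclast precursors, averaged 261 against 1.52. Cd163, a receptor of resident macrophages, stayed at 6.5 or below on all 8 arrays.

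Other branches of the blood lineage were weak or mixed. Of 19 granulocyte and mast cell genes, 17 had means under 16 in both groups, and 1 was called, the decoy receptor Il1r2, at 187 in stem Leydig and 11.5 in bone stem cells. S100a8 and S100a9, the most abundant transcripts of neutrophils, stayed at 8.1 or below. Of 30 lymphocyte genes, 20 had means under 16 in both groups and, near the 14.1% of all genes, 5 were higher in bone stem cells. They are Gzmb (788, 161 and 172 against 7.2 to 15.6), a protease of cytotoxic cells, the signalling adaptor Blnk, which myeloid cells also use, and the receptor genes Il7r, Cd8a and Cd8b. Cd8a stood at -0.82, with an adjusted p of 0.189 without bone stem replicate 2, and Cd8b at -0.81, with an adjusted p of 0.0509 without replicate 3. The T cell gene Cd3e read 0.9 to 2.7 on the 8 arrays. Of 9 genes of MHC class II presentation, 3 were higher in bone stem cells, the exchange chaperone chains RT1-DMa and RT1-DMb and the reductase Ifi30, whereas the chain RT1-Da read 23.5, 6.1 and 6.0. Of 14 erythroid and platelet genes none was called in limma (2 at an unadjusted p under 0.05), and 11 had means under 16 in both groups.

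The osteoclast list followed the macrophage list only in part. Of 12 measured genes, 4 were higher in bone stem cells, 2 in stem Leydig cells, and the median was 0.00. Mmp9, a matrix protease, read 175.2, 37.2 and 37.0 in bone stem cells and 1.5 to 13.0 in stem Leydig cells (-1.89 ± 0.31). Without bone stem replicate 1 its difference was -1.28. The proton pump subunit Tcirg1 averaged 460 against 138 (-1.65 ± 0.18). Acp5, the tartrate-resistant phosphatase, read 254.5, 337.8 and 379.5 in bone stem cells and 107 to 148 in stem Leydig cells (-1.19 ± 0.14). Ctsk, the collagenase of osteoclasts, averaged 635 in bone stem and 670 in stem Leydig cells, and Calcr, the calcitonin receptor, averaged 7.94 and 16.7. Carbonic anhydrase Car2 and the integrin Itgb3, both used by osteoclasts and by other cells, were higher in stem Leydig cells.

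Summed over its 54 genes, the macrophage list gave 37414, 31316 and 30260 on the 3 bone stem arrays. It gave 4498 to 6476 on the stem Leydig arrays and 6118 to 9926 on the 11 arrays of later Leydig stages. Every bone stem array lay above every other array of the study in this sum. The pan-leukocyte sum was 7771 to 10218 in bone stem and 1475 to 1738 in stem Leydig cells, and here the progenitor arrays reached 7880 to 9370. The lymphocyte sum was 640 to 1445 in bone stem cells, against 9869 to 12929 in progenitors. The all-leukocyte sum was 42670 to 53966 in bone stem, 9489 to 11243 in stem Leydig and 30787 to 37109 in progenitor arrays. How much the leukocyte level contributes to genes that leukocytes share with stroma, in the lists that follow, was not tested.

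**Figure D2:**
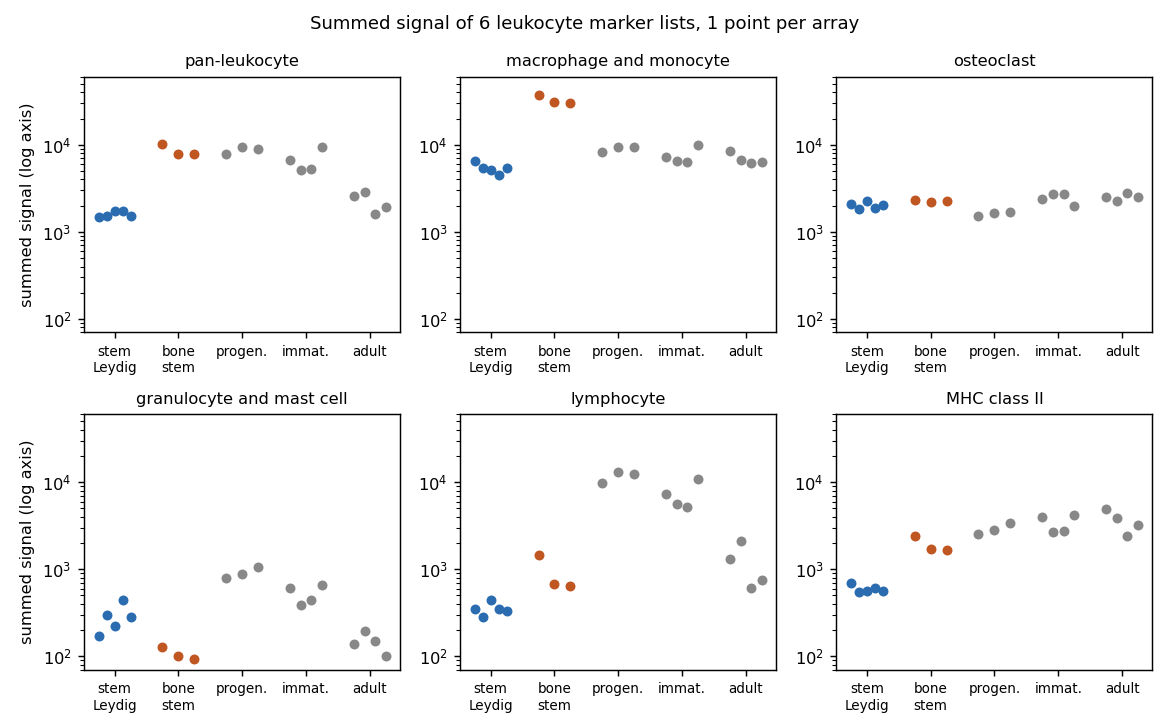
Summed signal of 6 leukocyte marker lists (log y axis) on each of the 19 arrays, stem Leydig in blue, bone stem in orange, later Leydig stages in grey. The macrophage sums of the bone stem arrays, 30260 to 37414, lie above all others, while their lymphocyte sums, 640 to 1445, lie below those of the progenitor and immature arrays.

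The promoters of the leukocyte genes were searched for a motif of PU.1, the factor that drives macrophage genes, because these genes moved together. The windows run from 250 bases before to 50 bases after the start in RefSeq (build GRCr8), and the letters searched were GAGGAAGT on both strands. The motif and its single spelling were chosen after the values had been seen. Of the 75 leukocyte genes higher in bone stem cells, 48 had a window and 6 of these held the letters (12.5%), against 2 of 55 leukocyte genes that were not called (3.64%) and 670 of all 27457 windows (2.44%). The 6 stretches have the motif in capitals and end at the annotated start where it is near, except that of Inpp5d, whose motif spans the start and is printed whole. They come from Ctss (chr2:185775349-185775395, plus strand), Cd53 (chr2:197087905-197087972, minus strand), Fcgr3a (chr13:85782550-85782617, plus strand), Cd37 (chr1:104860826-104860893, minus strand), Vav1 (chr9:2248873-2248940, plus strand) and Inpp5d (chr9:95735500-95735537, plus strand).
Ctss: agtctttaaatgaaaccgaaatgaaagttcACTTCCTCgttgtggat
Cd53: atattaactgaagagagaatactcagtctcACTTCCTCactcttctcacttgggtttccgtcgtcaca
Fcgr3a: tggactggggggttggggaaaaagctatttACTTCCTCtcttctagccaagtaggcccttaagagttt
Cd37: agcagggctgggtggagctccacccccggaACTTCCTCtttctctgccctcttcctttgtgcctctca
Vav1: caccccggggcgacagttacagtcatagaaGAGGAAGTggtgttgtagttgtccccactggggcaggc
Inpp5d: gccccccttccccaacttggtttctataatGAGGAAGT
In 4 of the 6 the letters stand as the reverse complement, ACTTCCTC, and in all of them they begin within 79 bases before the start. Ctss and Cd53 are among the strongest differences (-4.72 and -4.51), and Fcgr3a, Cd37, Vav1 and Inpp5d among the smaller ones (-2.0, -1.82, -1.78 and -1.6). A match is a description of the letters and not a test of binding.

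Leukocyte and stromal genes also differed among the bone stem arrays themselves. Replicate 1 was set against the mean of replicates 2 and 3 for genes with a bone stem mean of at least 100, a contrast and a limit chosen after the values had been seen, and given as a description with no test. Over 6136 genes the median of this log2 difference was -0.06, and 42.8% were above 0. Of the 55 leukocyte genes called higher in bone stem cells, 48 were higher in replicate 1 (87.3%), with a median of 0.5. Of the 48 genes so called in the mesenchyme lists outside the fat cell list, 9 were (18.8%), with a median of -0.41. The 8 so called in the fat cell list went with the leukocyte genes, with 7 higher in replicate 1 and a median of 0.72. Of all 1419 genes called higher in bone stem cells, 34.7% were higher in replicate 1, with a median of -0.14. The 1216 of them in no list had a median of -0.16, with 31.1% higher in replicate 1.

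Single genes showed the size of this spread. The complement genes C1qa, C1qb and C1qc, made by resident macrophages, read 1126, 461 and 536.5 in replicate 1 and 11.7 to 24.2 in replicates 2 and 3. C1qa and C1qc were called (-2.4 ± 0.71 and -2.12 ± 0.61), C1qb was not (adjusted p = 0.0618), and without replicate 1 the log2 differences were -0.78 (adjusted p = 0.123) and -0.77 (adjusted p = 0.125). Fabp4 read 828, 222 and 211, Gzmb 788, 161 and 172, and the adipsin gene Cfd 274, 36.1 and 39.4 (-2.15, and -1.34 without replicate 1). The difference of Gzmb was -2.72 without it. Smoc2, a matrix protein, ran the other way at 716, 2040 and 1993, as did Alpl at 75.3, 181 and 190.2. Replicate 1 was also the one with signal for Star (442 against 15.9 and 15.9) and for the stromelysin gene Mmp3 (436 against 14.2 and 11.1). It was the highest for Mgp, a mineralization inhibitor (3150 against 530 and 449). Star, Mgp and Mmp3 are not leukocyte genes and were likewise present in stem Leydig cells, with means of 740, 2837 and 194. Mgp was called higher in stem Leydig cells (1.56), with 1.18 (adjusted p = 0.144) without bone stem replicate 2, 1.06 (adjusted p = 0.171) without replicate 3 and 2.44 without replicate 1.

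**Figure D3:**
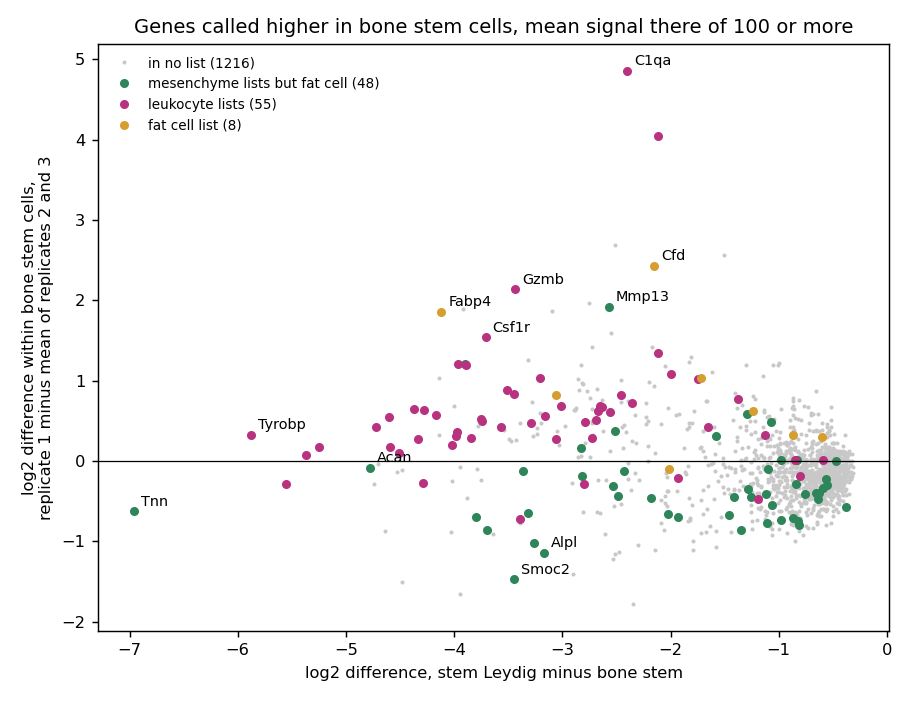
Each point is a gene called higher in bone stem cells with a mean signal there of at least 100. The x axis is the log2 difference of stem Leydig minus bone stem cells and the y axis the log2 difference of bone stem replicate 1 minus the mean of replicates 2 and 3. Of the leukocyte genes 48 of 55 lie above 0, and of the mesenchyme genes outside the fat cell list 9 of 48.

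The called genes of the mesenchyme lists divided evenly between the groups. Of 315 genes in the 10 mesenchyme lists, 64 were higher in stem Leydig cells and 65 in bone stem cells. The median was -0.08. In all 41% were called, against 23.8% of all genes. For this and each later list count, the shares of all genes were 9.76% toward stem Leydig and 14.1% toward bone stem cells. Several abundant matrix genes did not pass the test. Col1a1, the main chain of type I collagen, read 1506 to 4300 in stem Leydig and 2070 to 2631 in bone stem cells (0.07 ± 0.37; adjusted p = 0.945), and Col3a1 read 2289 to 5082 and 3225 to 4217 (-0.26 ± 0.24). The matrix genes Sparc and Fn1 and the intermediate filament gene Vim were not called either. The smooth muscle genes Acta2 and Tagln, common in cultured stroma, averaged 1558 and 2454 in stem Leydig cells and 1701 and 3126 in bone stem cells, and neither passed the test. Thy1, a surface marker of mesenchymal stem cells, read 1772.5 to 2378.9 in stem Leydig and 2890 to 3469 in bone stem cells. The groups did not overlap, but the adjusted p was 0.0857 (-0.64 ± 0.25).

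**Figure D4:**
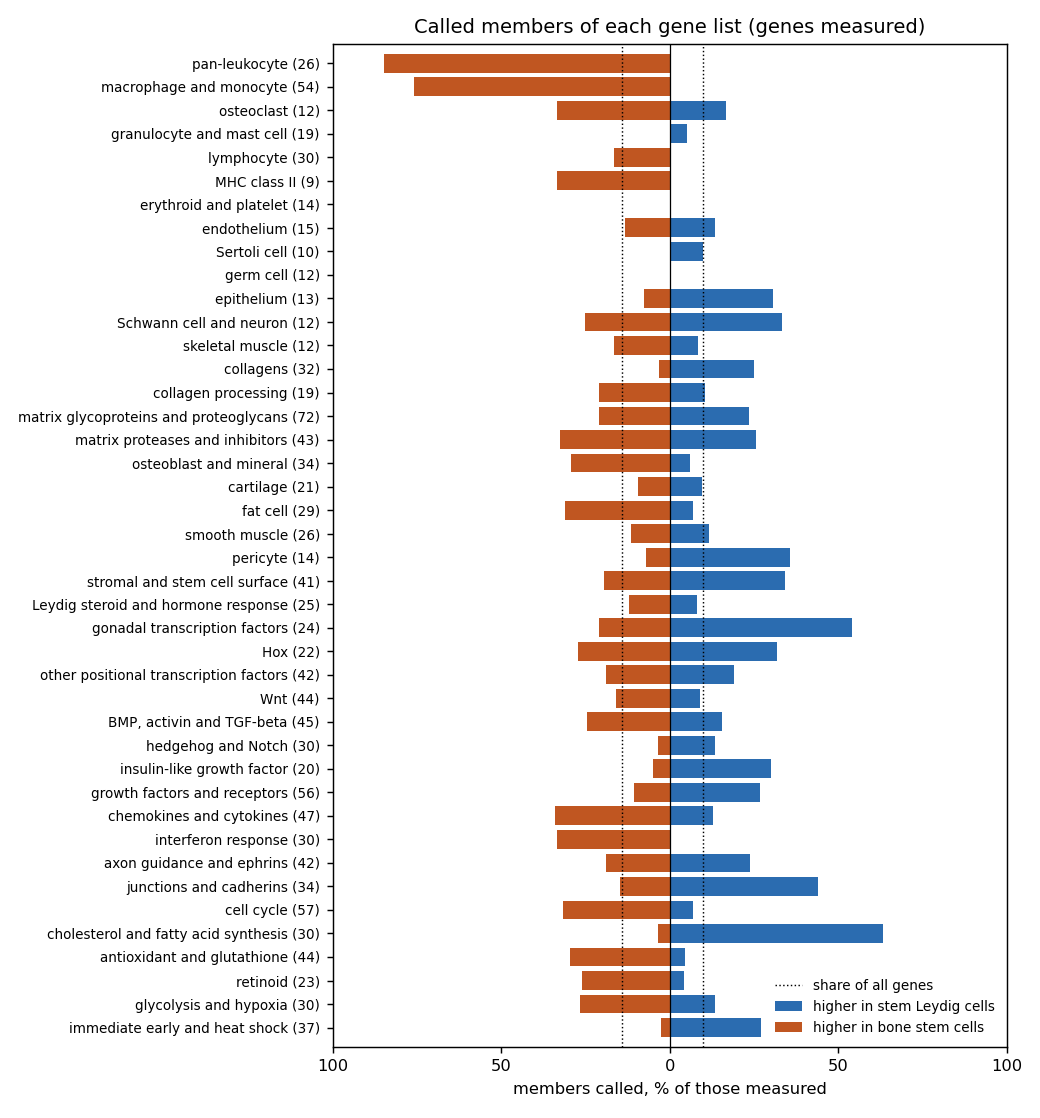
Share of the measured members of each of the 42 gene lists called higher in stem Leydig cells (blue, right) or in bone stem cells (orange, left), with the number measured in parentheses. Dotted lines mark the shares of all genes, 9.76% and 14.1%. The pan-leukocyte and macrophage lists reach farthest to the left, with 22 of 26 and 41 of 54 genes. The cholesterol and gonadal transcription factor lists reach farthest to the right, with 19 of 30 and 13 of 24.

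A set of matrix genes, some of them skeletal, was higher in bone stem cells. Tnn, tenascin W, a glycoprotein of bone surfaces, had the largest difference of all called genes, with signals of 1647, 2554 and 2522 against 0.8 to 2.6 in stem Leydig cells (-6.96 ± 0.15; adjusted p = 5.99e-17). Acan, the large proteoglycan of cartilage, read 899, 960 and 940.3 against 11.8 to 43.2 (-4.78 ± 0.22). Mfap5, a microfibril protein, read 793 to 1296 against 33.1 to 160 (-3.8 ± 0.37). Thbs2 and Smoc2, matrix proteins that bind cells and calcium, had bone stem means of 1815 and 1583 against 124 and 132. Lum, a small proteoglycan that orders collagen fibrils, was at 3066 against 686.

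Acan was 1 of 4 called genes in the cartilage list, whose called share was below the 23.8% of all genes. Of 21 measured, 14 had means under 16 in both groups, among them Col2a1 (10.1 in stem Leydig and 7.19 in bone stem cells). Runx3 was higher in bone stem cells (110 against 1.88), and Runx1 and the link protein gene Hapln1 in stem Leydig cells (0.73 ± 0.19 and 0.81 ± 0.19). Runx3 averaged 371 in progenitor, 186 in immature and 23.9 in adult Leydig cells. The part of the leukocyte level in its difference was not tested. Without bone stem replicate 2 the adjusted p of Runx1 was 0.0519.

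Genes of the bone-forming lineage were part of the difference, at lower levels. Of 34 osteoblast and mineral genes, 10 were higher in bone stem cells and 2 in stem Leydig cells. Ibsp, bone sialoprotein, read 108.5, 173.4 and 184.5 in bone stem cells and 0.4 to 1.2 in stem Leydig cells (-3.32 ± 0.28). Alpl, the alkaline phosphatase of mineralizing cells, read 75.3, 181 and 190.2 against 0.9 to 1.7 (-3.17 ± 0.35). The homeobox genes Msx2 and Dlx5 averaged 44.5 and 34.4 against 6.75 and 8.38. Osteocalcin, Bglap, a late marker, was called at a difference of -0.27 ± 0.07 but read only 0.8, 5.3 and 6.0 in bone stem cells (adjusted p = 0.0808 without replicate 2 and 0.1 without replicate 3). The sclerostin gene Sost was near 0 in both groups. Enpp1, which makes the mineralization inhibitor pyrophosphate, went the other way, at 1159 to 2360 in stem Leydig and 266.5 to 300.2 in bone stem cells (2.53 ± 0.21).

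Of 29 fat cell genes, 9 were higher in bone stem cells and 2 in stem Leydig cells. Fabp4, the fatty acid carrier of adipocytes that macrophages also express, read 828, 222 and 211 against 1.0 to 7.0 (-4.12 ± 0.35), and -3.5 without bone stem replicate 1. Pparg, the regulator of fat cell formation, was even across the bone stem arrays at 137, 145 and 151, against 19.6 to 30.6 (-2.01 ± 0.19). The lipase inhibitor Angptl4 and the lipase Lpl had means of 320 and 1463 against 22.8 and 415. Mature adipocyte genes were mixed. Adipoq and Lep stayed under 16, while the perilipin gene Plin4 read 115, 89.4 and 79.4 in bone stem cells against 2.0 to 14.9 (-2.17 ± 0.28). The adipsin gene Cfd was also called higher in bone stem cells (-2.15). Dlk1, which keeps precursors from becoming fat cells, was higher in stem Leydig cells, at 53.1 to 258.5 against 4.2 to 18.2 (2.64 ± 0.32).

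Most called collagen genes were higher in stem Leydig cells. Of 32 collagen genes, 8 were higher there and 1, Col8a2, in bone stem cells (-1.11, with an adjusted p of 0.121 without bone stem replicate 2 and 0.102 without replicate 3). The type IV collagens of basement membranes led the list. Col4a5 read 484 to 1037 in stem Leydig and 42.3 to 90.9 in bone stem cells (3.41 ± 0.23), and Col4a1 and Col4a2 had means of 2438 and 1604 against 602 and 364. Mfap4, an elastic fibre protein, read 342.4 to 1102.5 against 0.4 to 21.4 (4.66 ± 0.45), and Ltbp4, which binds latent TGF-beta in those fibres, 239 to 642 against 10.2 to 49.4 (3.45 ± 0.35). Dcn, the proteoglycan decorin, read 1170 to 1775 against 167.2 to 268.5 (2.65 ± 0.19). Of 72 matrix glycoproteins and proteoglycans, 17 were higher in stem Leydig and 15 in bone stem cells. Of 19 collagen processing genes, 2 were higher in stem Leydig and 4 in bone stem cells. One of them, Loxl2, a collagen crosslinking enzyme, rested on bone stem replicate 1, with 1.07 ± 0.31 over all arrays and 0.57 (adjusted p = 0.204) without it, and 0.86 (adjusted p = 0.0522) without stem Leydig replicate 1.

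Matrix proteases split by enzyme. Of 43 proteases and inhibitors, 11 were higher in stem Leydig and 14 in bone stem cells. Mmp12, macrophage elastase, and Ctsz, a lysosomal protease, had bone stem means of 715 and 691 against 29.6 and 87.6. Mmp13, a collagenase, read 716.2, 162.5 and 192.4 against 8.9 to 83.2 (-2.57 ± 0.42, and -1.93 without bone stem replicate 1). The membrane proteases Adam33 and Mmp16 and the broad inhibitor A2m were higher in stem Leydig cells (1.68, 1.67 and 2.51).

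Des and several pericyte genes were higher in stem Leydig cells. Des, the muscle intermediate filament desmin, which pericytes and interstitial cells also make, had the largest difference toward stem Leydig cells, with signals of 920.8 to 1250.5 against 22.9 to 28.4 (4.76 ± 0.27; adjusted p = 1.08e-10). Of 14 pericyte genes, 5 were higher in stem Leydig cells, among them the adhesion molecule Mcam (1100.3 to 1521 against 318 to 351) and the channel subunit Kcnj8. The aminopeptidase Anpep, also a surface marker of marrow stroma and myeloid cells, was the one higher in bone stem cells, at 1001 to 1252 against 128 to 242 (-2.53 ± 0.21). Of 26 smooth muscle genes, 3 were higher in each group, in all about the share of all genes called (23.8%). Itga8, Fhl1 and Fhl2 were higher in stem Leydig cells, and Actg2, Lmod1 and Ldb3 in bone stem cells. The calls of the last 3 were lost without bone stem replicate 2, at -0.94, -0.84 and -0.75 (adjusted p = 0.0608, 0.128 and 0.0513).

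**Figure D5:**
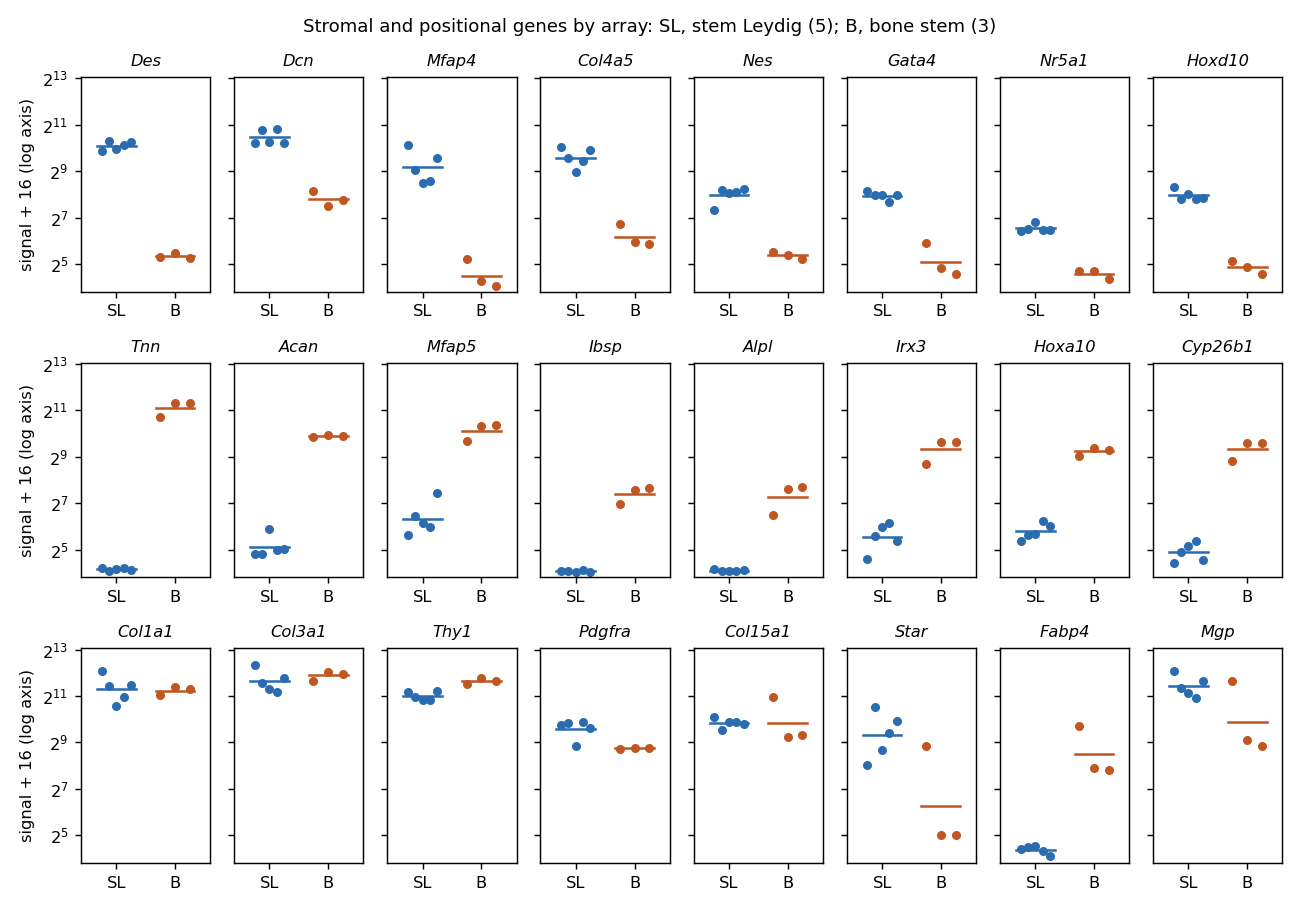
Signal + 16 (log2 axis) of 24 stromal and positional genes on each stem Leydig (SL, 5 points) and bone stem array (B, 3 points), with lines at the mean of the log values. The top row holds genes higher in stem Leydig cells, such as Des at 920.8 to 1250.5 against 22.9 to 28.4. The middle row holds genes higher in bone stem cells, such as Tnn at 1647 to 2554 against 0.8 to 2.6. The bottom row includes genes that did not pass the test, such as Col1a1, and genes that differed between bone stem replicate 1 and replicates 2 and 3, such as Star and Fabp4. It also holds Pdgfra, which was called higher in stem Leydig cells.

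Surface markers by which such cells are sorted differed between the groups. Of 41 measured, 14 were higher in stem Leydig and 8 in bone stem cells. Pdgfra, the PDGF receptor used to define stem Leydig cells, read 448 to 930 in stem Leydig and 407 to 419 in bone stem cells, a difference of 0.85 ± 0.2 (adjusted p = 0.00443) that is below 2-fold. Nes, the progenitor filament nestin, read 147 to 284 against 21.8 to 29.9 (2.6 ± 0.25). Itga1, Gfra1, Cd248, Eng and Alcam, surface proteins of stroma, were higher in stem Leydig cells (2.02, 1.75, 1.71, 1.63 and 1.35). Cd9, Cd55, Itga11 and Nt5e, the enzyme CD73 of the standard mesenchymal panel, were higher in bone stem cells (-2.49, -2.02, -1.93 and -1.29). Kit and Lifr, receptors for stem cell factor and leukemia inhibitory factor, stayed under 16 on all 8 arrays. Lepr, a marker of marrow stroma, was dim, at 6.7 to 15.5 in stem Leydig and 0.8 to 5.7 in bone stem cells (0.49, with an adjusted p of 0.156 without bone stem replicate 3).

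Transcription factors of the gonad were higher in stem Leydig cells. Of 24 measured, 13 were higher there and 5 in bone stem cells, with a median of 0.99. Gata4, a zinc finger factor of gonadal somatic cells, read 190.1 to 270 in stem Leydig and 7.8 to 44.8 in bone stem cells (2.85 ± 0.21; adjusted p = 2.42e-09). Nr5a1, steroidogenic factor 1, read 70.5 to 96.3 against 4.6 to 10.2 (1.95 ± 0.12). Lhx9 and Emx2, homeobox genes of the early gonad, had means of 96.6 and 34.9 against 8.74 and 6.83. Wt1 and Tcf21, factors of gonadal and renal mesenchyme, averaged 57.6 and 44 against 12.7 and 9.13, and Nr2f2, an interstitial nuclear receptor, 977 against 282. No other probe set of Gata4, Nr5a1 or Wt1 was called, though each kept its call when a gene's probe sets were averaged. Of the 5 higher in bone stem cells, Irx3 was the strongest, at 396, 777 and 776 against 8.3 to 54.5 (-3.79 ± 0.29), followed by Maf, Dmrt1, Lhx2 and Six4, the last 3 with bone stem means of 17.3, 15.8 and 29.2. Lhx2 lost its call without bone stem replicate 1 (-0.44; adjusted p = 0.182) and Six4 without replicate 3 (-0.45; adjusted p = 0.0741). Maf lost its call when its probe sets were averaged.

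Hox genes, which mark position along the body and the limb, split by cluster. Of 22 measured, 7 were higher in stem Leydig and 6 in bone stem cells. Hoxa10 read 505.6, 658.5 and 619.8 in bone stem and 25.1 to 59.8 in stem Leydig cells (-3.46 ± 0.22). Hoxa9, Hoxa11, Hoxa5 and Hoxa7 were also higher in bone stem cells (-2.78, -2.09, -1.25 and -0.76), and Hoxc5 was the sixth (-0.59, with an adjusted p of 0.119 without bone stem replicate 3). Hoxd10 ran in the opposite direction, with 205 to 303 in stem Leydig and 7.5 to 19.5 in bone stem cells (3.1 ± 0.15). Hoxd9, Hoxd8, Hoxd4 and Hoxd3 were higher in stem Leydig cells too (2.06, 1.36, 0.94 and 0.68), as were Hoxb2 and Hoxc8. Without bone stem replicate 2 the difference of Hoxd3 was 0.57 (adjusted p = 0.134). Each called member of the HoxA cluster was higher in bone stem cells and each called member of the HoxD cluster in stem Leydig cells. This held with quantile normalization and with median centring as well.

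Among 42 other positional factors, 8 were higher in each group. Shox2, Tbx18 and Eya1, genes of limb and trunk mesenchyme, had bone stem means of 90.8, 91.2 and 56.3 against 5.74, 21.1 and 8.7. Meis1, a Hox cofactor, read 609 to 723 in stem Leydig and 284 to 299 in bone stem cells (1.17 ± 0.13). Hand2 and Foxf1 were higher in stem Leydig cells at lower levels (1.01 and 0.99). Hand2 stood at an adjusted p of 0.0625 without bone stem replicate 2 and Foxf1 at 0.0904 without replicate 1.

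The genes of the mature Leydig cell were called about as often as genes at large, of which 23.8% were called. Of 25 steroid and hormone response genes, 2 were higher in stem Leydig and 3 in bone stem cells, and 11 had means under 16 in both groups. Star, which carries cholesterol to the first steroidogenic enzyme, had the largest difference, with 243, 1446, 391, 657 and 961 in the 5 stem Leydig arrays and 442, 15.9 and 15.9 in the bone stem arrays. The groups overlapped through bone stem replicate 1. The difference was 3.03 ± 0.64 (adjusted p = 0.00178) over all arrays, 4.31 without that replicate, and 2.39 without bone stem replicate 2 or 3. Cyp11a1, the first enzyme, read 10.4 to 19.1 and 11.5 to 21.0, and the luteinizing hormone receptor gene Lhcgr 9.2 to 15.4 and 12.3 to 15.9. Insl3, a Leydig cell hormone, averaged 15.7 and 11.6. Hsd11b1, which regenerates glucocorticoid, was higher in bone stem cells (817 to 1332 against 129 to 496), as was Hsd3b1 at 87.5, 22.3 and 21.2 (-0.93 ± 0.31, and -0.45 with an adjusted p of 0.353 without bone stem replicate 1).

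Synthesis of sterols and fatty acids was the metabolic list with the largest share of called genes. Of 30 measured, 19 were higher in stem Leydig cells and 1, Insig2, in bone stem cells, with a median of 0.66. Insig2 lost its call when its probe sets were averaged. Idi1, which isomerizes the isoprenoid precursor, read 288 to 582 in stem Leydig and 98.4 to 133 in bone stem cells (1.59 ± 0.23). Msmo1, a demethylating enzyme late in the path, read 1347 to 1823 against 543 to 583 (1.47 ± 0.15). Cyp51, Sqle and Fdft1, enzymes between them, had means of 624, 748 and 325 against 241, 292 and 150. Srebf2, which drives this path, was higher as well (329 against 212; 0.6, with an adjusted p of 0.0709 without bone stem replicate 2). In the promoters, the letters TCACNCCA of a sterol regulatory element, chosen and searched in the same way, were in 2 of 15 windows of the called genes (13.3%) and in 1073 of all 27457 (3.91%). They were also in 5 of the 55 windows of leukocyte genes that were not called (9.09%), in 1 of 48 of those called (2.08%) and in 0 of 7 of the sterol genes not called. The PU.1 letters were in 0 of 15 and 0 of 7 sterol windows. The 2 are Msmo1 (chr16:29746893-29746960, plus strand) and Srebf2 (chr7:115543121-115543188, plus strand), shown with the motif in capitals.
Msmo1: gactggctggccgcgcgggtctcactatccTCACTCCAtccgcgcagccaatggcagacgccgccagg
Srebf2: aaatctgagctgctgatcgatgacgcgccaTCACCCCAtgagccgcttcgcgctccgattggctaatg

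Secreted signals divided between the groups. Of 47 chemokine and cytokine genes, 16 were higher in bone stem and 6 in stem Leydig cells. Cxcl12, the chemokine of marrow stroma that retains blood stem cells, read 1378, 2028 and 2025 in bone stem and 197 to 542 in stem Leydig cells (-2.19 ± 0.24). Cxcl13, which attracts B cells, read 487, 1318 and 1298 against 13.3 to 110.1 (-4.36 ± 0.38). Cxcr4, the receptor of Cxcl12 and a leukocyte gene in many tissues, averaged 313 against 39.4. The alarmin Il33 and its receptor Il1rl1 were both higher in stem Leydig cells (2.1 ± 0.4 and 1.22 ± 0.19), as was the prostacyclin synthase Ptgis (2.69 ± 0.32, and 3.28 without bone stem replicate 1).

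Growth factor genes were called in both directions. Of 56 factors and receptors, 15 were higher in stem Leydig and 6 in bone stem cells. Bdnf, a neurotrophin, read 127 to 255 in stem Leydig and 4.6 to 13.7 in bone stem cells (2.84 ± 0.21). Vegfc, a lymphatic vessel factor, averaged 698 against 186. Fgfr3, a receptor of skeletal cells, read 279, 707 and 759 in bone stem cells and 20.8 to 24.2 in stem Leydig cells (-3.83 ± 0.25), and Fgf7 and Kitlg, ligands of FGF and Kit receptors, averaged 349 and 437 against 34.2 and 111. Of 20 genes of the insulin-like growth factor axis, 6 were higher in stem Leydig cells, led by the binding proteins Igfbp3 and Igfbp6 (2.45 and 1.9). The ligand Igf1 was the single one higher in bone stem cells, at 564 to 606 against 98.8 to 253 (-1.93 ± 0.22).

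In the Wnt list 4 of 44 genes were higher in stem Leydig and 7 in bone stem cells. These shares are close to those of all genes, 9.76% and 14.1%. Nkd2, an inhibitor induced by Wnt signals, read 280 to 516 in bone stem and 35.3 to 55.7 in stem Leydig cells (-2.82 ± 0.19), and the ligand Wnt5a averaged 496 against 171. In the BMP, activin and TGF-beta list, 11 of 45 were higher in bone stem and 7 in stem Leydig cells. The BMP antagonists Nog and Grem1 were both higher in bone stem cells, Nog at 86.5, 175 and 163 against 3.7 to 10.8 (-2.7 ± 0.18) and Grem1 at 3291 to 4094 against 1129 to 1506 (-1.47 ± 0.17). Inhba, the activin A subunit, was higher in stem Leydig cells (1.27 ± 0.33, with an adjusted p of 0.057 without bone stem replicate 2). Of 30 hedgehog and Notch genes, 4 were higher in stem Leydig cells, led by the Notch target Hes1 at 407 to 1251 against 69.3 to 270.5 (2.48 ± 0.34). Smo, Notch2 and Gli2 followed, and Notch1 was the one higher in bone stem cells. The called share of this list was below the 23.8% of all genes. Smo lost its call without bone stem replicate 1 (0.39; adjusted p = 0.116), and Notch2 and Gli2 without replicate 3 (adjusted p = 0.119 and 0.113).

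Enzymes that make and degrade retinoic acid went in opposite directions. Aldh1a2, which makes retinoic acid, read 49.2 to 373 in stem Leydig and 8.7 to 15.2 in bone stem cells (3.01 ± 0.38). Cyp26b1, which degrades it, read 440.6, 750.5 and 748.5 in bone stem and 5.8 to 24.9 in stem Leydig cells (-4.45 ± 0.25). Rarres1, a retinoid-induced gene, was also higher in bone stem cells (-3.82 ± 0.19), and Rbp4, the retinol carrier, read 624, 130 and 136 there against 0.8 to 3.1 (-3.76 ± 0.33, and -3.06 without bone stem replicate 1). Of 23 genes measured, 6 were higher in bone stem and 1 in stem Leydig cells.

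Genes of proliferation were more often higher in bone stem cells. Of 57 cell cycle genes, 18 were higher in bone stem and 4 in stem Leydig cells, with a median of -0.32. Mki67, the proliferation antigen, read 531, 262 and 278 in bone stem and 90.9 to 197 in stem Leydig cells (-1.05 ± 0.24). Kif20a and Cdc20, mitotic genes, were even across bone stem arrays, at 234.5 to 260.4 and 185 to 202 against 64.3 to 102 and 57.4 to 88.2. The inhibitors Cdkn1a and Cdkn2b went in opposite directions, with Cdkn1a at 2107 against 896 in favour of bone stem cells and Cdkn2b at 383 against 41.8 in favour of stem Leydig cells.

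Antioxidant and interferon response genes were mostly higher in bone stem cells where called. Of 44 antioxidant and glutathione genes, 13 were higher in bone stem and 2 in stem Leydig cells, among them the metallothionein Mt2A (-3.01), the haem oxygenase Hmox1 (-2.06) and Sod2 (-1.4). Of 30 interferon response genes, 10 were higher in bone stem cells and none in stem Leydig cells, with the deubiquitinase Usp18 and the immunoproteasome subunit Psmb9 as the largest (-1.88 and -1.73). The macrophage sum also differed between the groups, at 30260 to 37414 against 4498 to 6476. Among bone stem replicates 1 to 3 this sum was 37414, 31316 and 30260. Psmb9 fell in the same order (362, 209 and 207), and Usp18 rose (64.7, 84.3 and 94.3). The part of the macrophage sum in these differences was not tested. Of 30 glycolysis and hypoxia genes, 8 were higher in bone stem and 4 in stem Leydig cells. Of 37 immediate early and heat shock genes, 1 was higher in bone stem cells and 10 in stem Leydig cells, among the latter Klf4, Fosb and Fos. The bone stem values of Fos were 1392, 415 and 406, so that it overlapped with stem Leydig cells through replicate 1, and its difference was 1.28 over all arrays, 1.0 (adjusted p = 0.0905) without replicate 2 and 0.98 (adjusted p = 0.0938) without replicate 3. That of Fosb was 2.21, and 2.82 without replicate 1.

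Many adhesion and guidance genes were higher in stem Leydig cells. Of 34 junction and cadherin genes, 15 were higher there and 5 in bone stem cells, with the protocadherins Pcdh18 and Pcdh19 and plakoglobin, Jup, as the strongest (3.39, 2.49 and 2.1). Of 42 guidance genes, 10 were higher in stem Leydig cells, led by the receptor Robo2 (136 to 361 against 8.3 to 26.9), and 8 in bone stem cells, led by the plexin Plxnc1 and the neuropilin Nrp2 (-2.66 and -2.18).

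Markers of other cell types were low or divided. Of 15 endothelial genes, 9 had means under 16 in both groups, Flt1 and Esam were higher in stem Leydig and Tie1 and Egfl7 in bone stem cells (Egfl7 with an adjusted p of 0.056 without bone stem replicate 3), and Pecam1 stayed at 12.2 or below. Of 10 Sertoli cell genes 1 was higher in stem Leydig cells, Clu, at 386.5 to 690.6 against 110.3 to 125 (2.08 ± 0.18), a gene that many stromal cells make. Of 12 germ cell genes none was called in limma (2 at an unadjusted p under 0.05). Of 13 epithelial genes 4 were higher in stem Leydig and 1 in bone stem cells. The former include the simple keratins Krt18 (84.8 to 435 against 11.2 to 14.8) and Krt8. Of 12 Schwann cell and neuron genes 4 were higher in stem Leydig cells, including the neurofilament Nefm (104 to 262 against 2.8 to 14.2), and 3 in bone stem cells, including S100b. Of 12 skeletal muscle genes 1 was higher in stem Leydig cells, Des, and 2 in bone stem cells. The epithelial sum was 432 to 1224 in stem Leydig and 242 to 280 in bone stem cells, and the skeletal muscle sum 1171 to 1492 against 323 to 533, in which Des alone gave 920.8 to 1250.5. Over these 6 lists and the erythroid and platelet list, 12 of 87 genes were higher in stem Leydig and 8 in bone stem cells. In all this is about the share of all genes called (23.8%).

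Most called genes are in no list, 1179 of those higher in stem Leydig and 1723 of those higher in bone stem cells. Among the largest outside the leukocyte lists toward bone stem cells are Pilra, Lilrb4 and Cd300c2, immune receptors known from myeloid cells, and the platelet and macrophage chemokine Pf4. Pilra read 649 to 673 against 1.9 to 16.2 (-4.7 ± 0.26), Lilrb4 479 to 536 against 2.2 to 24.4, and Pf4 1545 to 1964 against 56.8 to 101. Cd300c2 was lowest in replicate 1, at 359 against 1101 and 993, unlike most genes of the leukocyte lists. The phosphodiesterase Smpdl3a and the synuclein Sncg had bone stem means of 2110 and 1522 against 64.8 and 52.7. Toward stem Leydig cells the largest included Olr1, a receptor for oxidized lipoprotein (146 to 577 against 0.3 to 1.9; 4.35 ± 0.29), the cadherin Cdh22, the imprinted RNA Meg3, the neural factor Bhlhe22 and Tmem88, a membrane protein that inhibits Wnt signals, which read 548.5 to 889.3 against 28.3 to 45.0 (3.61 ± 0.15). Nrep read 1132 to 2578 against 98.0 to 201 (3.52 ± 0.23).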

How the data were processed

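The deposited values are MAS5 signal intensities, computed by the authors with GCOS per the submitters' processing notes and scaled so that the 2% trimmed mean of each array is 100. The sources used here name no version or genome build. Each array received cRNA made from 6 ug of total RNA, per the labels' protocols. No detection calls were used.

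Of 31099 probe sets, 57 controls were left out. GEO's platform annotation gives 20826 of the others 1 symbol, 436 several and 9780 none, and only those with 1 symbol were named. A gene was read from its probe set with the highest mean over the 19 arrays. For some named genes no other probe set was called, among them Kitlg, Nrp2, Clu and Tcirg1. Signals were taken as log2(signal + 16), and limma 3.58.1 (R 4.3.3) was fitted with group means over all 19 arrays and an intensity trend. P-values were Benjamini-Hochberg adjusted over 31042 probe sets, with calls at an adjusted p under 0.05. The fit was tested on simulated data. The number of arrays limits the precision.

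The members and the 42 gene lists (1199 of 1403 symbols measured, each list reported with its count) were chosen with earlier results of these data known. Genes were named if called, without overlap between groups and with the brighter mean at or above the median probe set. The 12 largest in each direction outside leukocyte lists and the 3 largest in each direction of each list were taken, with a set of genes named regardless, which gave 203. Another 66 genes, the contrast within the bone stem arrays and the promoter motifs were chosen after values were seen. Alternatives covered the pseudocount, a filter on dim probe sets, normalization, array weights, the arrays used, a replicate block and the gene summary. Promoter sequences are RefSeq's (GRCr8).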

Additional observations from a re-analysis of the deposited data

Results flagged for a closer look

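Among the 269 genes examined singly (203 named by the rule and 66 added), 21 had 1 stem Leydig array at a gap from the other four of more than 0.71 of the group's range. Chance alone gives such a gap in about 1 in 20 groups. Replicates 1 and 3 held 9 each, and replicates 2, 4 and 5 held 1 each. The bone stem group, with 3 arrays, was not examined in this way.

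In replicate 3 the low signals were Meg3 at 210.6, Ctsz at 36.2 and Pdgfra at 448. Its high signals were Acan at 43.2, Rpl39l1 at 12.7, Cxcl13 at 110.1, Tie1 at 20.0, Mt2A at 241 and Nr5a1 at 96.3. In replicate 1 the low signals were Car2 at 48.5, Nes at 147, Fosb at 113 and Sqle at 544. Its high signals were Loxl2 at 869, Runx1 at 467, Laptm5 at 16.7, Hoxd3 at 24.4 and S100a9 at 8.14. The remaining 3 were Blnk in replicate 2 at 21.8, Plxnd1 in replicate 4 at 22.1 and Tbx18 in replicate 5 at 35.0. Of these genes, Loxl2 and Hoxd3 lost their call without stem Leydig replicate 1 (adjusted p = 0.0522 and 0.0531).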

How the results depend on the processing

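With 20 alternatives, each changing 1 setting, the leukocyte genes higher in bone stem cells numbered 68 to 79. Array quality weights called 10996 probe sets (6257 higher in stem Leydig, 4739 in bone stem) and 6046 genes (2705 and 3341), and 6 leukocyte genes higher in stem Leydig cells. With a minimum difference of 2-fold added to the threshold, 1902 probe sets (975 and 927) and 1129 genes (455 and 674) were called, with 41 mesenchyme genes higher in bone stem cells and 142 pathway genes (73 and 69). With bone stem replicates 2 and 3 averaged, 3707 probe sets were called, 1796 higher in stem Leydig cells, and 905 genes were higher there. Leaving out 1 array gave 3746 to 6320 probe sets (1824 to 3458 and 1922 to 2862), 2315 to 3657 genes (906 to 1531 and 1400 to 2126), 74 to 80 leukocyte genes (3 to 4 and 71 to 76), 103 to 134 mesenchyme genes (56 to 73 and 47 to 69) and 213 to 279 pathway genes (101 to 142 and 108 to 137). Probe sets numbered 3752 without bone stem replicate 2 and 3746 without replicate 3.

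No pairing by replicate number was seen, with same-numbered deviations from the group means correlated at -0.18, -0.19 and 0.03. With 3 bone stem arrays, 2 of them very close, this cannot exclude pairing. The fit with a replicate block called 4679 probe sets and 2772 genes, 77 of them leukocyte genes. Of the 242 called genes among the 269 examined singly, 186 were called in all 20 alternatives and 56 lost the call in 1 or more. Thy1, C1qb, Fn1, Mmp3 and Vim, which were not called, passed in 1 or more of them. When a gene's probe sets were averaged, Colgalt1 (0.2) and Gja1 (0.08) reversed in sign; the cause was not tested. Signals under 16, 41.9% to 47.3% of probe sets, are the limit of what these arrays resolve, and 3 bone stem arrays, 2 of them very close, limit the estimate of that group's spread.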
